A study of Mus musculus with 40 samples.

Results

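The 3 microRNAs (miRNAs) described here are mmu-miR-873a-5p, mmu-miR-1224-5p and mmu-miR-760-3p, out of 1894 mature miRNA entries in the deposited table. They were chosen by their levels in total small RNA, where their excess in the hypothalamus over 3 other tissues (brown fat, liver and muscle) was among the largest of all entries. Those levels are therefore given as a description with no test, and the streptavidin pull-down libraries are not part of that rule, although earlier results of the whole data set were known.

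The samples are hypothalamus, liver, brown fat and gastrocnemius muscle from 10 male mice that were 8 to 12 weeks old and ate standard chow, all analysed by small RNA sequencing. The mouse line, UCP1;UPRT, joins the transgenes Tg(CAG-GFP,-Uprt)985Cdoe/J and Tg(Ucp1-cre)1Evdr/J, and the mice received 4-thiouracil (4TU) into the abdomen at 50 mg/kg on 4 occasions, 48 h apart. Each tissue has 5 libraries of total small RNA (input) and 5 libraries of RNA that was biotinylated at its thiol groups and captured on streptavidin (IP), so there are 8 groups of 5. Genotypes of single mice are not given in the labels, and no group lacks 4TU or Cre. All inputs carry library names of pool 1 and all IPs of pool 2, so that pool and library type cannot be told apart. The promoter of Ucp1, which encodes the uncoupling protein of thermogenic fat, drives the Cre, and UPRT (uracil phosphoribosyltransferase) converts 4TU to a nucleotide for incorporation into RNA in place of uridine. The question addressed by the pull-down is which miRNAs carry the label in brown fat and in remote tissues.

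A mature miRNA is a short strand cut from a hairpin and loaded into an Argonaute protein, where its seed (bases 2 to 8) pairs with messenger RNAs and lowers their translation or stability. Most miRNA hairpins are released from the primary transcript by the nuclease Drosha and then cut by Dicer. A mirtron is an exception: its hairpin is a whole short intron, so splicing does the first cut, and miR-1224 belongs to this class.

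The mature sequences are shown first because both seed and base content come into the results. They are from RefSeq on GRCm38.p6, 5′ to 3′, with the seed in capitals, and all 3 names matched an entry there.
miR-873a-5p: gCAGGAACuugugagucuccu
miR-1224-5p: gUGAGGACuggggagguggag
miR-760-3p: cGGCUCUGggucugugggga
The 3 seeds differ from each other. miR-873a-5p has 6 uracils in 21 bases and 52.4% guanine plus cytosine (G+C). miR-1224-5p has 3 uracils in 21 bases and 66.7% G+C, and miR-760-3p has 5 uracils in 20 bases and 70.0% G+C. In the table, the seed of miR-873a-5p is shared by miR-6370, with 0.19 counts over all 40 libraries, and that of miR-760-3p by miR-7239-3p, with 0.59 counts. No other entry with a sequence has the seed of miR-1224-5p.

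The 3 hairpins lie on different chromosomes and in different kinds of transcript (GENCODE annotation of GRCm38, mm10). Mir1224 occupies chr16:20604452-20604536 on the plus strand, and these 85 bases are exactly 1 intron of the protein-coding gene Vwa5b2, with 0 bases left at either end, in 4 annotated transcripts. The hairpin is printed with miR-1224-5p in capitals to show that the mature miRNA is the first 21 bases of that intron, which opens with gu and closes with ag, the bases of a splice donor and acceptor.
Mir1224 hairpin: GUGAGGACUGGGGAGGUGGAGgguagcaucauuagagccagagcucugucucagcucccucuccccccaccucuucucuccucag
Mir873a lies at chr4:36668510-36668586 on the minus strand, inside an intron of 281280 bases of Lingo2, a gene for a leucine-rich repeat membrane protein that is transcribed from the same strand. Mir873b is annotated over the same interval on the opposite strand. Mir760 lies at chr3:122293585-122293703 on the minus strand, within an exon (122286877 to 122293720) of Gm17494, a processed transcript of the same strand.

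The entries miR-873a-5p and miR-873b cannot be separated in these data. Their hairpins are reverse complements of each other, and their mature positions overlap by 12 bases; the capitals below mark miR-873a-5p within its hairpin.
Mir873a hairpin: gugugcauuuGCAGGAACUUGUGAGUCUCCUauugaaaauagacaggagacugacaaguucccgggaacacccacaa
miR-873b: aCAAGUUCcugcaaaugcacac
Their counts were equal within 0.005 in 39 of the 40 libraries, and the largest difference was 0.38 counts. The strand setting of the counting is not given in the sources used here, so each value of miR-873a-5p is that of an entry whose reads cannot be told apart from those of miR-873b. Whether reads of the locus were divided between both entries is not known. Summed, both entries held 3260 rounded counts in the hypothalamus inputs, against 1630 for miR-873a-5p alone and 2308 for miR-760-3p. The order of miR-873a-5p and miR-760-3p there depends on this, and levels and ratios below are those of the single entry unless stated.

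The deposited values are expected counts, estimated counts that need not be whole. Input libraries held 153036 (hypothalamus input 4) to 5562487 counts and IP libraries 11928 (liver IP 4) to 921297, with 67819 to 229622 in the hypothalamus IPs. The unit of level is CPM, the counts of an entry per 1000000 counts of its library; a read covers a whole mature miRNA, so levels are not divided by length. The label of the tissue was checked on 4 neuronal miRNAs (miR-124-3p, miR-9-5p, miR-7a-5p, miR-138-5p): their summed level was 204478 to 340348 CPM in the hypothalamus inputs and at most 7360 CPM in any input of another tissue, and each of the 4 had counts in the hypothalamus inputs. Of the hypothalamus libraries, input 4, input 5 and IP 5 stood apart. miR-375-3p, a miRNA of pituitary and other endocrine cells, was at 349 to 388 CPM in inputs 1 to 3, 17733 in input 4 and 38126 in input 5, and at 94.6 to 372 CPM in IPs 1 to 4 and 96614 in IP 5. Summed with miR-7a-5p, miR-141-3p and miR-200a-3p, the 4 pituitary markers came to 76152 to 141574 CPM in inputs 1 to 3, 199446 in input 4 and 339010 in input 5, and to 49550 to 94426 CPM in IPs 1 to 4 and 321021 in IP 5. miR-7a-5p is also on the neuronal list, and miR-141-3p and miR-200a-3p had 0 counts in IPs 1 to 4. Input 4 also held the fewest counts of the hypothalamus inputs and a summed level of 3 muscle miRNAs of 188869 CPM, against 1530 to 2557 CPM in the other hypothalamus inputs. Its summed levels of 3 liver and of 4 brown fat miRNAs were 22897 and 11409 CPM, against 1155 to 1305 and 1064 to 2123 CPM in the others. Results are therefore also given without these 3 libraries.

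In the hypothalamus inputs, miR-760-3p was at 389, 451, 369, 111 and 140 CPM in libraries 1 to 5 (mean 292 ± 155, SD, n = 5). miR-873a-5p was at 215, 366, 281, 71.2 and 98.9 CPM (206 ± 123). miR-1224-5p was at 161, 172, 150, 39.2 and 44.4 CPM (113 ± 65.8). Libraries 1 to 3 were high and libraries 4 and 5 low for each of the 3 miRNAs, and the range of the 3 high libraries did not meet that of the 2 low ones. Without libraries 4 and 5 the means were 403 ± 42.7 CPM for miR-760-3p, 287 ± 75.5 for miR-873a-5p and 161 ± 11 for miR-1224-5p (SD, n = 3), against 125, 85.1 and 41.8 CPM in the 2 libraries left out. The neuronal miR-9-5p moved the same way, with a mean of 125986 CPM in libraries 1 to 3 and 37635 in libraries 4 and 5. For miR-124-3p these means were 8062 and 2003 CPM. The sum of the 4 neuronal miRNAs, which includes the pituitary marker miR-7a-5p, was not lower. It was 204478 to 279679 CPM in libraries 1 to 3, and 210306 and 340348 CPM in libraries 4 and 5. Markers of 2 other brain cell types were lower in libraries 4 and 5. The 3 choroid plexus miRNAs summed to 1352 to 1608 CPM in libraries 1 to 3 and to 752 and 739 CPM in libraries 4 and 5. The 2 oligodendrocyte miRNAs summed to 219 to 946 against 98.0 and 88.6 CPM. The low libraries are those high in the pituitary marker miR-375-3p, and the part of any of these in the lower levels was not tested; in such bulk tissue, fewer cells of a type and less RNA per cell cannot be told apart.

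**Figure D1:**
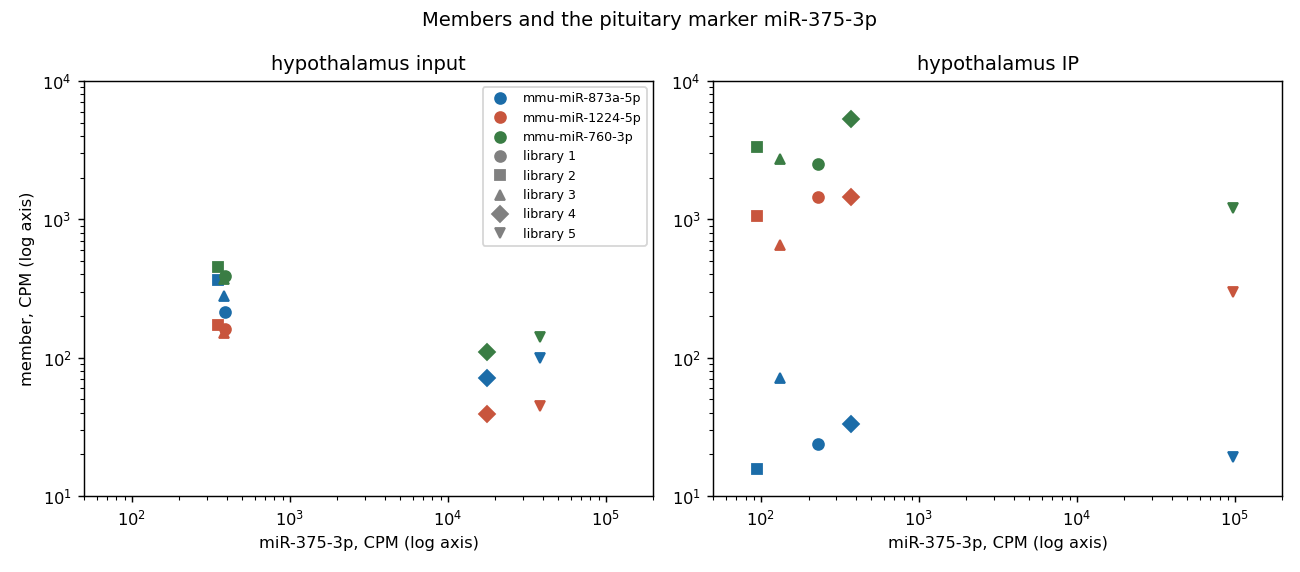
CPM of the 3 miRNAs (vertical, log axis) against CPM of miR-375-3p (horizontal, log axis) in the 5 hypothalamus inputs (left) and 5 hypothalamus IPs (right); colour gives the miRNA and shape the library. Inputs 4 and 5 lie to the right of and below inputs 1 to 3 for each miRNA, and IP 5, at 96614 CPM of miR-375-3p, is lowest for miR-1224-5p and miR-760-3p.

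The levels of the 3 miRNAs relative to each other varied far less between hypothalamus inputs than the levels themselves. The ratio of miR-760-3p to miR-1224-5p ran from 2.41 to 3.16 in the 5 inputs, and that of miR-760-3p to miR-873a-5p from 1.23 to 1.81. The level of miR-760-3p itself differed by 4.08-fold between its lowest and highest input, that of miR-1224-5p by 4.38-fold and that of miR-873a-5p by 5.13-fold.

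Outside the hypothalamus the 3 miRNAs were found at the level of single reads. In the 15 inputs of brown fat, liver and muscle, miR-873a-5p had 15.1 counts in all, spread over 14 libraries and at most 1.81 CPM in any of them. miR-1224-5p had 8.69 counts in 11 libraries, at most 1.02 CPM, and miR-760-3p had 27.1 counts in all 15 libraries, at most 4.19 CPM. The hypothalamus inputs held 99.1%, 99.0% and 98.8% of all input counts of miR-873a-5p, miR-1224-5p and miR-760-3p. The working name "hypothalamus-restricted" therefore stands for a large excess among these 4 tissues and not for a complete lack of reads elsewhere.

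Behind the hypothalamus, tissues next to each other in the order of mean level had libraries with overlapping ranges. miR-873a-5p averaged 1.15 ± 0.43 CPM in brown fat, 0.46 ± 0.36 in liver and 0.26 ± 0.20 in muscle (SD, n = 5 each). miR-1224-5p averaged 0.54 ± 0.40, 0.54 ± 0.34 and 0.094 ± 0.092 CPM in these tissues, and miR-760-3p 1.92 ± 1.51, 1.00 ± 0.70 and 0.47 ± 0.38 CPM. For each miRNA the ranges of tissues next to each other in this order overlapped, and the means of miR-1224-5p in liver and brown fat were nearly equal. This does not cover the ends of the order, such as miR-873a-5p in brown fat (1.15 ± 0.43 CPM) against muscle (0.26 ± 0.20), which lay further apart. Overlapping ranges also do not make means alike. For miR-1224-5p the means of liver (0.54 ± 0.34 CPM) and muscle (0.094 ± 0.092) differed by more than either SD. As ratios of rounded counts summed over the group and divided by total counts, the hypothalamus excess of miR-760-3p was 160-fold over brown fat (exact 95% interval 89.1 to 321), 381-fold over liver (130 to 1848) and 568-fold over muscle (298 to 1243). Scaled by trimmed mean of M values (TMM), the same counts gave 171-fold (95.7 to 344), 152-fold (52 to 738) and 122-fold (64.2 to 267), so the order of these tissues turned with the scaling. Rounding left 11, 3 and 9 counts of miR-760-3p in the brown fat, liver and muscle inputs, in place of 12.55, 5.0 and 9.5. These ratios are thus larger than the unrounded counts would give, most of all over liver. Over brown fat the ratio of miR-873a-5p was 138 (72.5 to 302) by total count and 148 (77.8 to 324) by TMM, and that of miR-1224-5p 163 (63.5 to 600) and 175 (68.1 to 644). Such intervals cover counting error only, because reads were pooled over the 5 libraries of a group, and they leave out the spread between mice. PCR copies were not marked by molecular identifiers, so copies count as separate reads. The pooled hypothalamus inputs are weighted towards input 5, with 5562487 of 9474653 counts, where the 3 miRNAs were low.

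**Figure D2:**
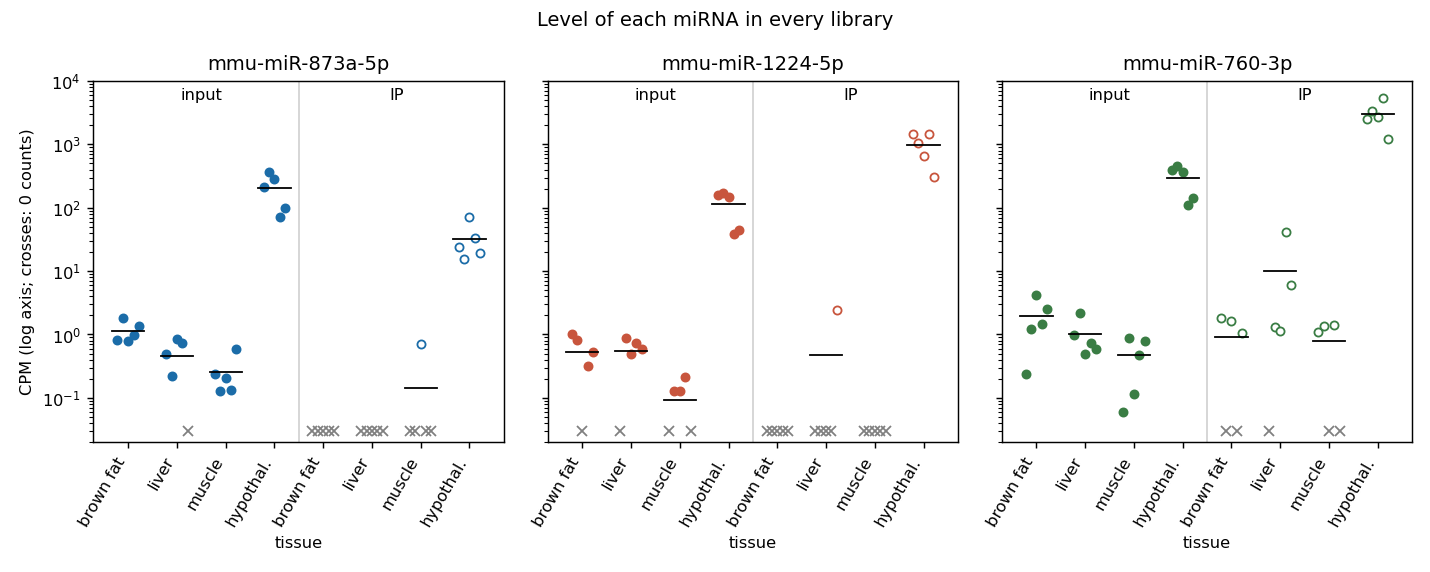
CPM (log axis) of each miRNA in every library, by tissue, with inputs left (filled) and IPs right (open) in each panel; bars are means of 5 libraries and crosses mark libraries with 0 counts. All 5 hypothalamus libraries lie above every library of the other tissues of the same type, and from input to IP the hypothalamus falls for miR-873a-5p and rises for miR-1224-5p and miR-760-3p.

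In the inputs, the few reads in other tissues stood in similar proportion to those of the neuronal miR-9-5p. In the hypothalamus inputs there were 3.16 counts of miR-760-3p per 1000 counts of miR-9-5p, and in the inputs of brown fat, liver and muscle 2.91, 2.39 and 2.76. For miR-873a-5p the value was 2.23 in hypothalamus and 1.79, 1.02 and 1.53 in the other tissues, and for miR-1224-5p 1.17 against 0.956, 1.19 and 0.599. The exact 95% intervals of the other tissues include the hypothalamus value in all 9 cases, and they are wide, for example 0.77 to 5.57 for miR-760-3p in liver. Where the reads of both miR-9-5p and the 3 miRNAs in these tissues came from was not tested.

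**Figure D3:**
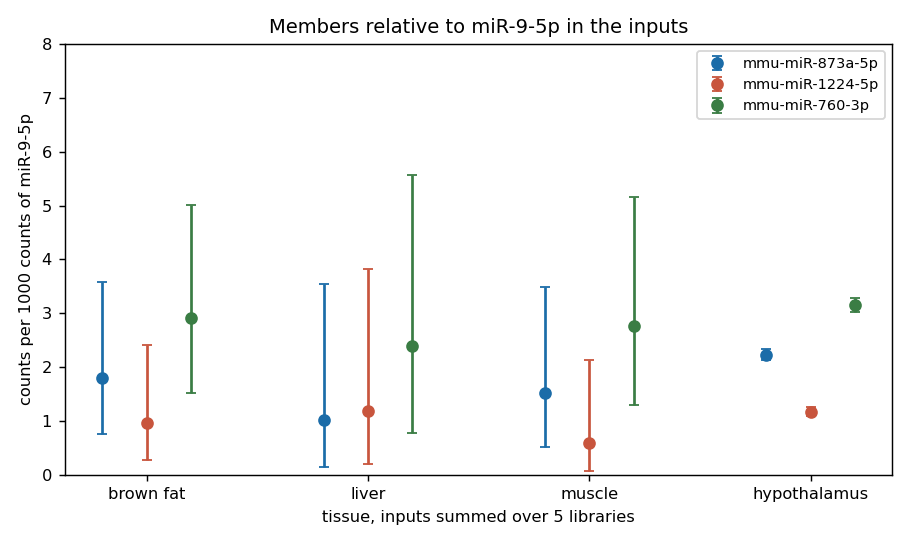
Counts of each miRNA per 1000 counts of miR-9-5p (vertical), summed over the 5 inputs of each tissue (horizontal); bars are exact 95% Poisson intervals and cover counting error only. The interval of each miRNA in brown fat, liver and muscle includes its value in the hypothalamus, 2.23 for miR-873a-5p, 1.17 for miR-1224-5p and 3.16 for miR-760-3p.

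For the contrast that chose them, hypothalamus inputs against the mean of the other inputs, 444 entries passed the filter on low counts and 50.7% were called higher. The 3 miRNAs stood at places 3, 6 and 9 of the order by log2 fold change, with 7.21 for miR-873a-5p, 7.10 for miR-1224-5p and 6.91 for miR-760-3p. Their neighbours in that order were miR-153-5p (7.31), miR-92b-5p (7.25), miR-3059-5p (7.12), miR-346-5p (7.04), miR-344c-3p (6.99), miR-124-3p (6.87) and miR-3547-3p (6.66), so no gap sets them off from the entries around them. Of these neighbours, miR-124-3p, the classical miRNA of neurons, had a mean of 5638 CPM in the hypothalamus inputs and the rest 17.2 to 97.2 CPM. These log2 values are scaled by TMM and rest on few reads in the other tissues: the value of miR-873a-5p was 8.12 without liver input 3, that of miR-1224-5p 7.99 without liver input 2, and with total count as the only scaling they were 8.78, 8.62 and 8.48. Without hypothalamus inputs 4 and 5 they were 7.53, 7.42 and 7.22.

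In the hypothalamus pull-down the 3 miRNAs parted. miR-760-3p was at 2510, 3313, 2717, 5322 and 1207 CPM in IPs 1 to 5 (mean 3014 ± 1502, SD, n = 5), and every IP was above every input. miR-1224-5p was at 1446, 1050, 657, 1440 and 301 CPM (979 ± 500), also with every IP above every input. miR-873a-5p was at 24, 15.7, 71.0, 33.2 and 19.2 CPM (32.6 ± 22.5), and every IP was below every input, by a narrow margin between IP 3 and input 4 at 71.2 CPM. The last values rest on 5.5, 1.58, 15.3, 2.25 and 4 counts, against 62.8 to 332 counts of miR-1224-5p and 252 to 586 of miR-760-3p in the same libraries. Input and IP with the same library number are taken as the same mouse. Within these pairs, the IP level was 6.45 to 48.1 times the input level for miR-760-3p and 4.39 to 36.7 times for miR-1224-5p, each higher in 5 of 5 mice. For miR-873a-5p it was 0.043 to 0.466 times the input level, lower in 5 of 5 mice. The highest ratios of all 3 came from replicate 4, whose input is the shallow library rich in muscle miRNAs. The neuronal miR-9-5p and miR-124-3p also had every IP below every input. The share of all entries whose inputs and IPs separate in this way was not counted, so the separation alone does not set the 3 miRNAs apart.

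**Figure D4:**
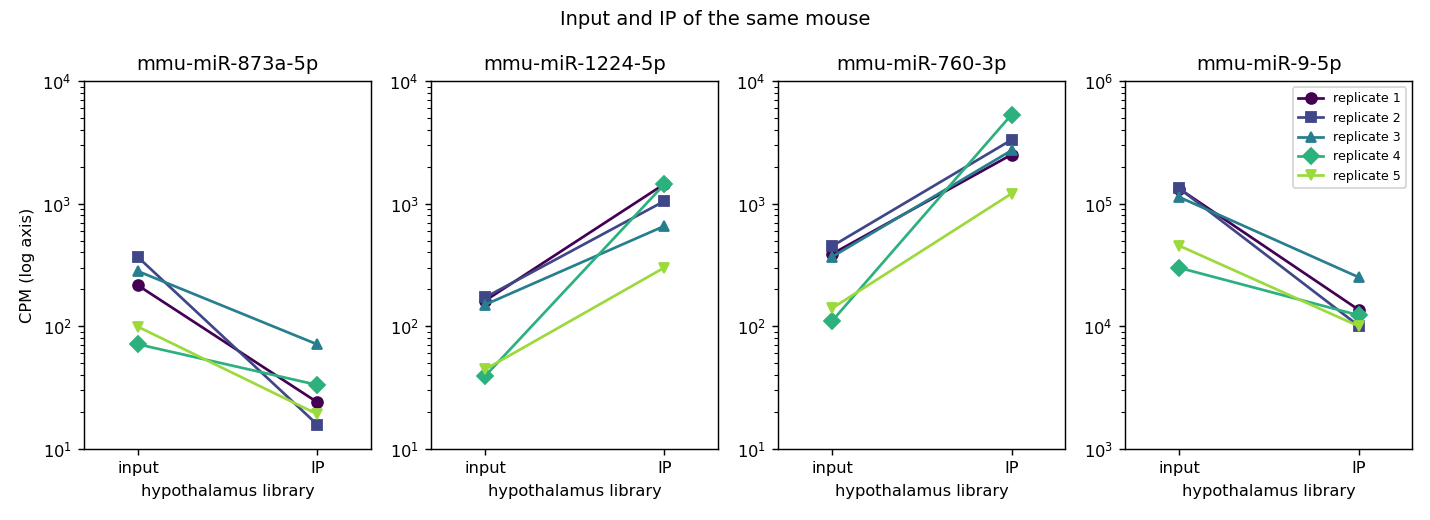
CPM (log axis) in the input and the IP of each of the 5 hypothalamus replicates, for the 3 miRNAs and for the neuronal miR-9-5p (whose axis covers a higher range). Each line joins libraries with the same library number, taken as the same mouse. The lines of miR-1224-5p and miR-760-3p rise in 5 of 5 mice, and those of miR-873a-5p and miR-9-5p fall in 5 of 5.

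Of 273 entries tested between hypothalamus IP and input, 28.2% were called higher and 47.3% lower, with a median log2 fold change of -1.04, so a call in either direction was common. miR-760-3p was higher in the IP by a log2 fold change of 4.15 (SE 0.39, edgeR quasi-likelihood adjusted p = 2.57e-06) and stood at place 17 from the top. miR-1224-5p was higher by 3.96 (SE 0.49, adjusted p = 1.58e-05), at place 23. miR-873a-5p fell by 1.73 (SE 0.43, adjusted p = 0.0028), and 42.1% of entries fell further, so its decline was near the middle of the table. With total count as the only scaling the values were 3.35, 3.08 and -2.62, and with no filter 3.46, 3.24 and -2.42, in the order miR-760-3p, miR-1224-5p and miR-873a-5p. The filter was passed by miR-760-3p in both groups, by miR-1224-5p only through the IPs and by miR-873a-5p only through the inputs, the group where each is high. With no filter the adjusted p was 7.79e-06, 3.42e-05 and 0.000762 in the same order. Leaving out inputs 4 and 5 and IP 5 gave 3.86 (adjusted p = 2.8e-06), 3.62 (7.95e-06) and -2.30 (0.00118).

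The proportions between the 3 miRNAs show the same split without any scaling. The ratio of miR-760-3p to miR-873a-5p was 1.23 to 1.81 in the inputs and 38.3 to 211 in the IPs, with no overlap. The ratio of miR-760-3p to miR-1224-5p was 1.74 to 4.14 in the IPs, a range that encloses that of the inputs. Relative to miR-9-5p, which fell in the IP by 1.79 (SE 0.39, adjusted p = 0.00131), miR-873a-5p stood in similar proportion in both, with 2.30 counts per 1000 counts of miR-9-5p in the IPs (exact 95% interval 1.53 to 3.30) and 2.23 in the inputs. miR-1224-5p went from 1.17 to 59.3 counts per 1000 (55.1 to 63.7 in the IPs), and miR-760-3p from 3.16 to 169 (162 to 176). The IPs of the other tissues rest on at most 2.5 counts of each miRNA. There miR-760-3p had 14.8 (2.45 to 47.3) in brown fat and 34.8 (5.79 to 112) in liver, below the hypothalamus IPs. In muscle it had 105 (17.4 to 335), which includes their value. For miR-1224-5p the interval lay below in brown fat, with 0 and up to 21.8, and included 59.3 in liver and muscle. For miR-873a-5p all intervals included 2.30.

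The pull-down also differed between tissues. In the 15 IPs of brown fat, liver and muscle, miR-873a-5p had 0.25 counts in 1 library, miR-1224-5p 0.5 counts in 1 library and miR-760-3p 7.5 counts in 10 libraries. By tissue, miR-760-3p had 2.5 counts in each of the 3, that is 0.91 ± 0.88 CPM in brown fat, 10.1 ± 17.9 in liver and 0.78 ± 0.72 in muscle. The liver value is set by IP 4, where 0.5 counts of 11928 in all amount to 41.9 CPM; the other 14 IPs of these tissues had at most 6.02 CPM. The groups of brown fat, liver and muscle overlapped with each other, and none reached the hypothalamus IPs.

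In brown fat, the tissue whose Ucp1 promoter drives the Cre, the IPs held 0 counts of miR-873a-5p and of miR-1224-5p in 2037095 counts in all. That allows up to 1.47 CPM (3 counts over the 5 libraries), for counting error only. The hypothalamus IPs were at least 611-fold higher than the brown fat IPs for miR-1224-5p and at least 23.9-fold higher for miR-873a-5p. These values are from rounded counts summed over the group, with the floor at 3 counts over the group. For miR-760-3p the ratio was 2611 (exact 95% interval 722 to 21572). Against the liver IPs miR-1224-5p was at least 288-fold and miR-873a-5p at least 11.3-fold higher, and against the muscle IPs at least 736-fold and 28.8-fold. For miR-760-3p the ratios were 2464 (442 to 97364) over liver and 3143 (869 to 25974) over muscle. On the TMM scale these sizes shrink: miR-1224-5p was at least 555-fold, 73.4-fold and 114-fold higher than in brown fat, liver and muscle, and miR-873a-5p at least 21.7-fold, 2.88-fold and 4.46-fold. For miR-760-3p the ratios were then 2370 (655 to 19580), 627 (112 to 24777) and 487 (135 to 4021). Rounding left 2, 1 and 2 counts of miR-760-3p in the brown fat, liver and muscle IPs, in place of 2.5 in each. On both scales its ratios are thus larger than the unrounded counts would give, most of all over liver.

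In the test of hypothalamus IPs against the mean of the other IPs, 209 entries passed the filter, 35.9% were called higher and 40.2% lower. miR-1224-5p and miR-760-3p were among them (edgeR quasi-likelihood adjusted p = 5.85e-14 and 2.27e-19); both passed the filter only through the hypothalamus, so that they had to differ, and their size is the ratio or bound given above. miR-873a-5p did not pass the filter, at 44.9 CPM or more in 1 of the 5 hypothalamus IPs. Between IP and input of brown fat, liver or muscle, 0 of the 3 miRNAs passed the filter, so no change was tested there; the lowest of these filters, in muscle, lay at 4.28 CPM.

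In counts summed over the hypothalamus inputs or IPs, the other arm of each hairpin was rarer, to different degrees. In the hypothalamus inputs miR-873a-3p made up 19.1% of the counts of both arms (Clopper-Pearson 95% interval 17.4 to 20.9), or 10.6% with the reads assigned to miR-873b added to the 5p arm. In the IPs its share was 40.8% (27.0 to 55.8) of 49 counts, or 26.0% (16.6 to 37.2) with miR-873b added. Without miR-873b it ran from 29.8% to 52.2% in single IPs, so it was not the rarer arm in each of them. miR-873a-3p was at 45.8 ± 25.7 CPM in the inputs and 22.1 ± 10.1 in the IPs (SD, n = 5), and these groups overlapped. It did not pass the filter.

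The mirtron arm miR-1224-3p made up 1.38% of the counts of both arms in the inputs (0.716 to 2.40) and 0.538% in the IPs (0.147 to 1.37), intervals that overlap. miR-760-5p made up 0.259% in the inputs (0.0952 to 0.564) and 0% in the IPs, where 0 of 2108 rounded counts allow up to 0.175%. Mir876, a hairpin 23056 bases from Mir873a in the same Lingo2 intron, was at the edge of detection. miR-876-5p had 6 counts in the hypothalamus inputs and 0 in the IPs, and miR-876-3p had 0 counts in all 40 libraries.

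miR-1224-5p was the only one of 6 entries of known mirtrons (both arms of miR-877, miR-702 and miR-1224) that passed the filter in the hypothalamus. The other entries of this list are given as levels with no test. Single counts weigh much at these levels: 1 count is 4.35 CPM in hypothalamus IP 1, 14.7 CPM in IP 4 and 6.53 CPM in input 4. As 28.2% of all entries tested were called higher in this contrast, the levels give no result about mirtrons as a class. miR-702-3p was at 5.57 to 10.5 CPM in the inputs and 19.6 to 136 in the IPs, and miR-877-5p at 0 to 11.3 CPM in the inputs and 30.1 to 163 in the IPs. miR-877-3p was at 6.98 to 17.8 CPM in the inputs and 1.09 to 41.5 in the IPs, which overlap. miR-702-5p had 0 counts in the inputs and up to 14.9 CPM in 3 of the 5 IPs.

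The entries whose pattern over the 8 groups was most like each miRNA were sought among 376 entries with at least 20 CPM in the hypothalamus inputs. Likeness was the root mean square difference of mean log2(CPM + 1), each profile set to 0 at its hypothalamus input. For miR-873a-5p the most alike entries after miR-873b were miR-370-5p (0.40), miR-325-5p (0.42), miR-431-3p (0.69) and miR-217-5p (0.73). For miR-1224-5p they were miR-298-5p (0.58), miR-760-3p (0.67), miR-346-5p (0.68), miR-3099-3p (0.77) and miR-135a-2-3p (0.86). For miR-760-3p they were miR-1224-5p (0.67), miR-298-5p (0.86), miR-770-5p (1.06), miR-346-5p (1.13) and miR-92b-3p (1.25). These lists depend on the amount added before taking logs. With 5 CPM in place of 1, 3 of the 5 names remained for each miRNA: the list of miR-1224-5p then held neither miR-760-3p nor miR-298-5p, that of miR-760-3p no longer held miR-346-5p, and that of miR-873a-5p no longer held miR-370-5p. miR-298-5p and miR-1224-5p stayed in the list of miR-760-3p, and miR-325-5p in that of miR-873a-5p.

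The mature sequences of 4 of these entries are printed to compare seeds and base content with those of the 3 miRNAs, again with the seed in capitals.
miR-298-5p: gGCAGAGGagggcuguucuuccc
miR-346-5p: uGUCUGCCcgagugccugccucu
miR-370-5p: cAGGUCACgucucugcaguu
miR-325-5p: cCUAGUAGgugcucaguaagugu
No seed among these 4 equals one of the 3 above. miR-298-5p was at 162 to 561 CPM in the hypothalamus inputs and 3079 to 7191 in the IPs, and it has 65.2% G+C, as has miR-346-5p. The G+C share is 55.0% in miR-370-5p and 47.8% in miR-325-5p. The likeness is partly a likeness of the pull-down itself, since the IPs are part of the profile: miR-298-5p was higher in the hypothalamus IP by 4.60 and miR-346-5p by 2.30 on the log2 scale, while miR-370-5p fell by 1.23 and miR-325-5p fell by 1.58 (edgeR adjusted p of at most 0.00797 for each of the 4).

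Since 4TU stands in for uracil, the change in the hypothalamus pull-down was set beside the bases of each mature sequence. A RefSeq sequence was found for 238 of the 273 entries tested. By G+C, the 109 entries with up to 45.5% had a median log2 fold change of -2.53, with 16 called higher and 71 lower. The 53 entries with 45.8% to 50.0% had a median of -1.31 (11 higher, 28 lower), and the 76 entries with at least 52.2% had a median of 0.97 (37 higher, 18 lower). By number of uracils no such order appeared: the median was 0.84 for 36 entries with up to 4 uracils, -1.24 for 48 with 5, -2.14 for 55 with 6, -1.91 for 35 with 7, -1.38 for 31 with 8 and 0.28 for 33 with 9 or more.

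The 3 miRNAs differ in where they stand by G+C. miR-760-3p has more G+C than 97.9% of the 238 entries and miR-1224-5p more than 93.7%, while 69.7% of them have less G+C than miR-873a-5p. At 52.4%, miR-873a-5p is still within the group of at least 52.2% G+C, whose median was 0.97, although it fell by 1.73. miR-1224-5p is poor in uracil, with fewer uracils in 3.36% of entries, and miR-760-3p and miR-873a-5p have 15.1% and 35.3% of entries below them. Across these 238 entries of the same 10 libraries, Pearson's r with the log2 fold change was 0.43 for G+C and -0.05 for the number of uracils, and r between both measures was -0.54. Entries are not independent replicates, so these values are a description, and the part of base content in the changes of the 3 miRNAs was not tested.

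**Figure D5:**
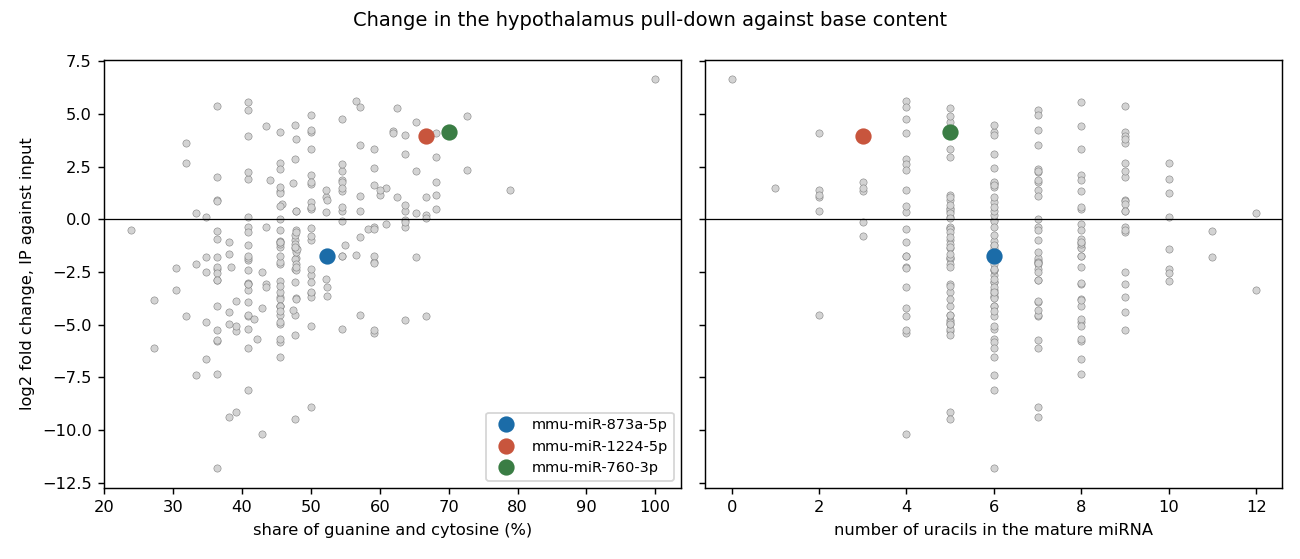
Log2 fold change between hypothalamus IP and input (vertical; edgeR, TMM scale) against the G+C share in percent (left) and the number of uracils (right) of the 238 entries with a sequence, each a grey point, with the 3 miRNAs in colour. miR-1224-5p (66.7% G+C) and miR-760-3p (70.0%) lie at the upper right of the left panel and miR-873a-5p (52.4%) below 0, and the grey points rise with G+C (r = 0.43) but not with the number of uracils (r = -0.05).

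A list of 38 brain miRNAs, made from general knowledge with earlier results of these data known, was compared in the same way. Of its 32 members tested between hypothalamus IP and input, 5 were higher, 16 lower and 11 not called. Their median log2 fold change was -1.01, against -1.04 over all 273 entries, of which 28.2% were higher and 47.3% lower. The list thus lay near the whole table in its median and its share called lower, and below it in its share called higher. Of its 4 most abundant members, miR-9-5p fell by 1.79 and miR-128-3p, a neuronal miRNA, fell by 0.99 (SE 0.35, edgeR adjusted p = 0.0214). miR-7a-5p and miR-7b-5p, which are rich in neuroendocrine cells, had 0.10 (SE 0.63, adjusted p = 0.892) and 0.28 (SE 0.72, adjusted p = 0.728). The value of miR-873a-5p thus lay close to that of miR-9-5p, and those of miR-1224-5p and miR-760-3p well above the list's median.

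Between the hypothalamus IPs and the mean of the other IPs, 19 members of the brain list were tested; 18 were higher and 1 was not called (edgeR; 35.9% of all 209 entries higher, 40.2% lower). A brain miRNA scarce in the other tissues can pass the filter only through the hypothalamus IPs, so this count is a description. Their median log2 fold change was 6.14, against -0.42 over all 209 entries. The 4 most abundant were miR-7a-5p (4.68), miR-7b-5p (8.14), miR-375-3p (8.67) and miR-9-5p (6.14). With other scalings the split of all calls moved: 47.2% of calls were higher with TMM, 62.9% with the median of ratios, 60.8% with DESeq2, 64.1% without a filter and 78.7% with total count. Between hypothalamus IP and input it was 37.4% with TMM and 25.7% with total count.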

How the data were processed

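Small RNA libraries of 40 samples were analysed from 1 deposited table of expected counts made by the authors. Per the submitters' processing notes, the tools were fastp, STAR and featureCounts and the genome build was mm10. Versions, miRNA annotation, strandedness and the handling of multi-mapping reads were not given in the sources used here. Of positive values 18.9% were whole within 0.001. Counts were rounded, and no library total moved by more than 0.127%. Groups, mice and pools came from the labels, and 0 columns lacked a sample. The deposited table lists 1894 entries, of which 1613 had a count.

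The 3 miRNAs and all lists were chosen with earlier results of these data known. Tests were two-sided quasi-likelihood tests of edgeR 4.0.16 in R 4.3.3 (filterByExpr by group, TMM scaling), adjusted over all entries tested by Benjamini-Hochberg, with a threshold of 0.05. IP and input were compared within the 10 libraries of a tissue, and tissues within the 20 IPs or 20 inputs. The steps were tested on simulated counts. CPM use total counts. Intervals are exact, at 95%, and a group at 0 has a floor of 3 counts. Replicates of a group have different library numbers and are taken as different mice. Input and IP of the same hypothalamus replicate share a library number and are taken as the same mouse. In these 5 pairs, deviations from the group means correlated with r of -0.06 to 0.61, above 0.1 in 4, and 3 libraries correlated best with their own partner. The mouse was an alternative block. Besides the 3 miRNAs, the names printed follow these rules: other arms, miR-873b and miR-876, entries sharing a seed, the 5 most alike entries of each, the neighbours in the input order, and the 4 most abundant members of the brain list; the marker and mirtron entries follow from their lists. The libraries that stand apart were chosen after values were seen. Alternatives were scaling by the median of ratios (RLE) or total count, no filter or a minimum mean of 10 CPM, DESeq2 1.42.0, voom of limma 3.58.1, 1 fit over all 40 libraries, shared entries counted once, each library left out, and the mouse block. Added after seeing the data were fits without the libraries that stand apart, miR-873a-5p and miR-873b summed, and a minimum change of 2-fold.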

Additional observations from a re-analysis of the deposited data

Results flagged for a closer look

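In 5 of the 20 sets of 5 libraries examined, 1 library lay far from the other 4, with its gap to the nearest above 0.71 of the whole range. The chance rate of about 1 in 20 holds for normally distributed values. It is no measure for sparse counts such as those in these 5 sets. All 5 are libraries outside the hypothalamus with at most 2.5 counts of the miRNA. miR-873a-5p was at 0.600 CPM (2.25 counts) in muscle input 5, against 0.236 CPM in the next library, and at 0.720 CPM (0.25 counts) in muscle IP 3, with 0 in the other muscle IPs. miR-1224-5p was at 2.41 CPM (0.5 counts) in liver IP 5, with 0 in the other liver IPs. miR-760-3p was at 2.21 CPM (2.5 counts) in liver input 2, against 0.980 CPM in the next library. It was at 41.9 CPM (0.5 counts) in liver IP 4, which holds 11928 counts, against 6.02 CPM in the next library.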

How the results depend on the processing

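For the 3 miRNAs, no alternative turned a direction or ended a call. With each library left out, the log2 fold change between hypothalamus IP and input ran from 3.94 to 4.36 for miR-760-3p, 3.70 to 4.11 for miR-1224-5p and -2.18 to -1.57 for miR-873a-5p. With the mouse as replicate block the values were 4.13, 3.86 and -1.75, with 78 entries higher and 132 lower, and against the other IPs 76 higher and 74 lower; the block changed no call of the 3. miR-873a-5p and miR-873b summed gave -1.80. Tested against a minimum change of 2-fold, the adjusted p was 7.26e-06 for miR-760-3p, 4.46e-05 for miR-1224-5p and 0.0284 for miR-873a-5p. Total count moved the median of all entries between hypothalamus IP and input by -0.79, no filter by -0.65, RLE by -0.18 and a minimum of 10 CPM by 0.25; between the hypothalamus and the other IPs, total count moved it by 2.07, RLE by 1.25 and DESeq2 by 1.22.

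Counts of all calls depended more on the settings. Between hypothalamus IP and input, 77 entries were higher and 129 lower; higher were 121 in 1 fit of all 40 libraries, 120 with a minimum of 10 CPM and 132 with no filter, and lower 208 in the fit of all libraries and 259 with no filter. With single libraries left out they ran from 72 to 87 and 122 to 147. Against the other IPs, 75 were higher and 84 lower; higher were 123 with a minimum of 10 CPM, 202 with no filter and 122 with total count, which left 33 lower. With single libraries left out they ran from 78 to 98 and 78 to 92. In this contrast the fitted value of miR-760-3p against brown fat rose from 9.80 to 11.24 without brown fat IP 1, and against liver it was 11.44 without liver IP 5, since few counts remain there; that of miR-1224-5p ran from 9.51 to 10.32 with single libraries left out.

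With total count the input contrast was 8.78 for miR-873a-5p, 8.62 for miR-1224-5p and 8.48 for miR-760-3p. With TMM the mean CPM in the hypothalamus inputs was 70.2 in place of 206, 38 in place of 113 and 99.4 in place of 292. Depth limits the values of miR-873a-5p in the hypothalamus IPs, which rest on 28.7 counts in all, and every value outside the hypothalamus.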
